A study of Bos taurus with 64 samples.

Results

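The extracellular matrix of muscle was followed here through the genes whose name on the array belongs to a collagen, laminin, nidogen, thrombospondin, small proteoglycan, matrix protease, protease inhibitor, collagen-processing enzyme or integrin family. The choice was made on the name alone. It gave 78 genes with 83 probes, out of 5449 transcripts with 13285 probes on the array. Of these genes, 4 carry a matching name without being matrix genes (COL4A3BP, ITGB1BP1, ITGB1BP2 and ITGB1BP3), and they were kept and are described apart. The muscles were the longissimus thoracis (LT), along the back, and the semitendinosus (ST), in the hind leg, of 32 Normand cull cows aged 4.5 years.

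All the cows were finished for 101 days on straw and concentrate with oil from linseeds and rapeseeds. In each handling group 8 cows received this lipid-rich ration alone, called the control diet, and the other 8 received it with vitamin E and the plant polyphenol mixture, called Lipid VitE PERP in the labels and the EP diet here. The stressed cows, labelled moderated stress, travelled alone in a lorry and then spent 30 min in a labyrinth on a farm they did not know. The cows with limited stress were moved calmly with a companion. Each muscle gave 16 arrays of stressed and 16 of limited stress cows, with 8 cows per diet in each group, and both muscles of a cow were taken within 15 min of slaughter. The 11 measured markers of skeletal muscle, ACTA1, CKM and DES among them, had a summed level between 8.71 and 9.29 on the log2 scale over the arrays where each of them had a value (32 of the LT and 28 of the ST). In whole muscle, fewer matrix-producing cells and less RNA per cell cannot be told apart.

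The matrix around muscle fibres has a basement membrane that touches each fibre, built from laminins, type IV collagen, nidogens and perlecan, and an interstitial part between fibres and bundles, built mainly from type I and type III collagen. Small proteoglycans and matricellular proteins set how the fibrils assemble and how cells read them. Metalloproteinases of the MMP and ADAMTS families cut these components, TIMP proteins inhibit the proteases, and lysyl oxidases crosslink the collagen. This connective tissue is known for its part in the background toughness of meat.

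The levels below are the log2 of a probe's signal over the 75th percentile of its array, so a level of 0 is that percentile itself. They compare one probe between arrays and do not rank one gene above another. A gene was tested in a muscle when 11 or more of its 32 arrays showed the probe well above background, which left 64 of the 78 genes for the LT, whereas 62 were left for the ST. The genes that were not tested in either muscle were ADAMTS19, COL17A1, COL8A1, COL9A2, ITGA1, ITGA2, ITGA4, ITGA9, ITGAM, ITGB3, ITGB8, MMP1, MMP27 and P4HA3, and COL10A1 and MMP13 were tested in the LT alone. A change was called where 80% or more of the tested probes of a gene moved one way with an adjusted p (Benjamini-Hochberg over all probes of the comparison, limma) under 0.1.

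The results for stress turn on 2 genes, THBS1 and LAMA5. The paper lists THBS1 as changed by stress in the LT alone, and LAMA5 is not among the genes it lists. The following lines show 30 bases of each 60-base probe that measured these 2 genes. Capitals mark the bases that the named THBS1 probe shares with the first probe of the custom set Target1675, the only one of the 5 custom probes that overlaps it. The other 4 were assigned to THBS1 through their set alone and were not aligned to the transcript.
THBS1 named probe, bases 3 to 32: CTCATTTGTTGTGTGACTGAGTAAAGAATT
Target1675 probe 1: CTCATTTGTTGTGTGACTGAGTAAAGAATT
Target1675 probe 2: tcttatcccatcccttgtgcctatttccag
Target1675 probe 3: tggttgtccatttgcaagtgtttttagttt
Target1675 probe 4: gcaagctgctcttcaccttgtgcttagact
Target1675 probe 5: gcaggtagttgagatcgatcagcaaatctt
LAMA5 named probe: aggtgctatgaacttctcctactcgccgct
The array files place the THBS1 probe at chr10:35129200-35129259, on the plus strand and from base 5179 of its transcript, and the LAMA5 probe at chr13:55616537-55616596, on the plus strand and from base 699 of its transcript, in the build Btau 3.1 of the cattle genome. The exon or untranslated part that holds each probe was not looked up, as no annotation of that build was used here.

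Stress raised THBS1 in the LT. THBS1 encodes thrombospondin 1, a matricellular glycoprotein that restrains vessel growth and can activate latent TGF-beta. Its level ranged from -2.45 to -0.58 with a median of -2.22 in the 16 stressed cows, and from -3.82 to -1.24 with a median of -2.80 in the 16 cows with limited stress. Each of the 16 stressed cows exceeded the limited stress median, although the groups overlapped. The log2 fold change was 0.83 (SE 0.17, 95% interval 0.48 to 1.19), or 1.78-fold, with an adjusted p of 0.00337 in limma. The difference was above 0 on each of the 4 slides of the LT, between 0.63 and 1.29. It was 0.80 (SE 0.25) on the EP diet and 0.87 (SE 0.25) on the control diet, and with 8 cows a group neither passed the threshold alone (adjusted p = 0.164 and 0.103 in limma).

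The custom probes of the set assigned to THBS1 gave similar values. The 5 probes of Target1675 had log2 fold changes between 0.78 and 0.86 in the LT, and all 5 passed the threshold, the probe with the highest adjusted p at 0.00711 in limma. In the ST, the same probes were between 0.61 and 0.65 and none of the 5 passed.

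In the ST, the THBS1 level went from -3.58 to -0.31 with a median of -2.40 in stressed cows, and from -4.05 to -1.66 with a median of -2.91 in limited stress cows. Among the stressed cows, 13 of 16 lay above the limited stress median. The log2 fold change was 0.62 (SE 0.25, 95% interval 0.11 to 1.14), with an adjusted p of 0.191 in limma, so the ST difference was not past the threshold. On the EP diet alone it was 0.28 (SE 0.36, adjusted p = 0.945) and on the control diet alone 0.97 (SE 0.36, adjusted p = 0.152). It was above 0 on 4 of the 5 slides of the ST and was -1.04 on the slide that held 1 stressed cow. Handling and slide were unbalanced in the ST, where 1 slide held 6 stressed cows and 1 limited stress cow, which was on the EP diet. A stress difference in the ST, above all on the control diet alone, and one between slides thus cannot be fully told apart. The spread between cows of one group was wider in the ST (SD 0.738) than in the LT (SD 0.511). The LT effect exceeded the ST effect by 0.21 (SE 0.31), with an adjusted p of 0.999 in limma for the muscle by stress interaction.

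LAMA5 was called lower in stressed cows in both muscles, and its call in the ST rested on the processing. LAMA5 encodes the laminin alpha 5 chain of basement membrane laminins. In the LT its level ranged from -8.28 to -7.22 with a median of -7.75 in stressed cows and from -7.79 to -6.72 with a median of -7.21 in limited stress cows, and no stressed cow lay above the limited stress median. The log2 fold change was -0.45 (SE 0.11, adjusted p = 0.013 in limma). In the ST the stressed cows ranged from -7.85 to -6.88 with a median of -7.31, the limited stress cows from -7.42 to -6.53 with a median of -7.02, and 1 stressed cow lay above the limited stress median. The log2 fold change there was -0.39 (SE 0.09, adjusted p = 0.0145 in limma). Every slide had a difference below 0, from -0.70 to -0.32 in the LT and from -0.42 to -0.06 in the ST.

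The LAMA5 probe was dim. It was well above background on 10 of 16 stressed and 16 of 16 limited stress arrays in the LT, and on 14 and 15 arrays in the ST. The LT call was lost when the arrays were divided by the median of the control features (log2 fold change -0.63, adjusted p = 0.266 in limma), as was the call of THBS1 (0.66, adjusted p = 0.295). The ST call of LAMA5 was lost with the control features too, and with cow and slide together as a replicate block. It was also lost without scaling (-0.24, adjusted p = 0.289 in limma), with slide as a block (-0.25, adjusted p = 0.335) and with scan day as a block (-0.28, adjusted p = 0.18). After the normexp background correction the log2 fold change was -0.11 in the LT (still called) and -0.07 in the ST (adjusted p = 0.252, not called). A stricter filter on dim probes, which asked for all 16 arrays of a handling group well above background, left LAMA5 untested in the ST. On the EP diet alone LAMA5 had -0.41 and on the control diet alone -0.49 in the LT, neither past the threshold. In the ST it was called on the control diet alone (-0.49, adjusted p = 0.0568) and not on the EP diet alone (-0.28, adjusted p = 0.775). As for THBS1, the handling groups of the control diet were spread unevenly over the slides of the ST.

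**Figure D1:**
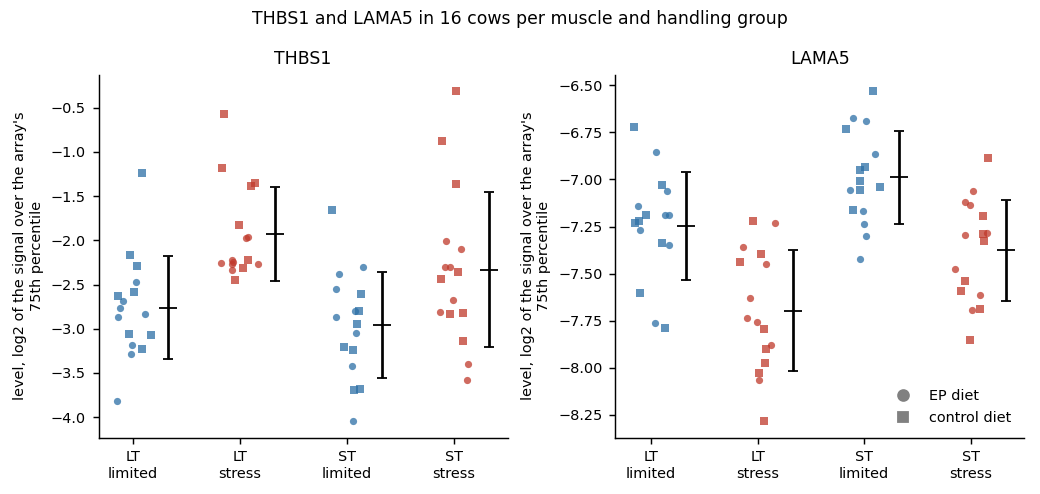
Levels of THBS1 (left) and LAMA5 (right), as log2 of the signal over the 75th percentile of the array, for each cow by muscle and handling group; circles are EP diet cows and squares control diet cows, and the black bars are the mean and SD of 16 cows. In the LT the stressed cows lie higher for THBS1, with log2 fold change 0.83, and lower for LAMA5, with log2 fold change -0.45, and the groups overlap in every panel.

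These 2 genes were the only matrix genes called for stress in the LT (2 of 64 tested), where 3.73% of all tested transcripts were called, 2.2% higher and 1.53% lower. LAMA5 was the only one in the ST (1 of 62), where 3.6% of all tested transcripts were called, 1.48% higher and 2.12% lower. The matrix genes were thus called at a share near that of the array or under it. At an unadjusted p under 0.05, 8 matrix genes of 64 passed for the LT, and for the ST 11 of 62 did, against 21.2% and 22.4% of all tested transcripts when the lowest p among the probes of a transcript is taken. The median log2 fold change of the matrix genes was 0.01 in the LT and -0.06 in the ST, and that of all tested transcripts was -0.05 and -0.06.

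The fibrillar collagens, which make the tensile fibres of the interstitial matrix, did not pass the threshold in either muscle (0 of 4 in each). COL1A1, the alpha 1 chain of type I collagen, ranged from -0.87 to 1.32 in stressed cows and from -1.55 to 1.36 in limited stress cows in the LT, and from -1.28 to 2.39 and from -0.56 to 1.80 in the ST. The groups overlapped widely in both muscles. Its log2 fold change was 0.14 (95% interval -0.31 to 0.58) in the LT and 0.16 (-0.44 to 0.77) in the ST. COL3A1, the chain of type III collagen, had 0.09 (-0.41 to 0.60) in the LT and 0.11 (-0.51 to 0.74) in the ST, and COL1A2 had 0.12 (-0.25 to 0.50) and 0.10 (-0.44 to 0.63). In the ST the interval of COL1A1 includes differences of up to 0.77 on the log2 scale. On the control diet alone COL1A1 had -0.07 (SE 0.31) in the LT and -0.10 (SE 0.42) in the ST, and on the EP diet alone 0.35 (SE 0.31) and 0.43 (SE 0.42), none past the threshold. COL27A1, a minor fibrillar collagen, had -0.29 (SE 0.18) in the LT and -0.19 (SE 0.17) in the ST.

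The other collagens were also under the threshold in every case (LT, 0 of 5, and ST, 0 of 4). They included COL6A1 and COL6A3, chains of the microfibrillar type VI collagen, and the fibril-associated COL12A1 and COL16A1. In the basement membrane group, 1 of 10 genes passed in each muscle, LAMA5 both times. The nidogens, the perlecan gene HSPG2, COL4A2, COL4A6, COL18A1, LAMA4, LAMB3 and LAMC1 had log2 fold changes between -0.21 and 0.15 in the LT and the ST, with none called.

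Among the 10 matrix glycoproteins, THBS1 alone passed, in the LT. TNC, which encodes tenascin C, a glycoprotein of loaded and injured tissue, had a difference of 0.61 (SE 0.27) in the LT, with an adjusted p of 0.262 in limma, and 0.06 (SE 0.33) in the ST. CTGF, the connective tissue growth factor, now named CCN2, had 0.35 (SE 0.17) in the LT and 0.14 (SE 0.16) in the ST. THBS2, another thrombospondin, had 0.29 (SE 0.21) in the LT and -0.45 (SE 0.22) in the ST, and THBS3 had 0.12 and 0.21. FN1, which encodes fibronectin, had 0.05 (95% interval -0.38 to 0.48) in the LT and -0.07 (-0.44 to 0.30) in the ST. The 4 proteoglycan genes, BGN, DCN, FMOD and LUM, had none called and lay between -0.13 and 0.16 in both muscles.

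No tested protease passed the threshold (LT, 0 of 10, and ST, 0 of 9). ADAMTS9, which the paper lists among the genes changed by stress in the ST alone, had no probe under its name and was not tested here. ADAMTS4, an aggrecanase, had the largest log2 fold change of the matrix genes in the ST, 1.07 (SE 0.46), with an adjusted p of 0.22 in limma. Its level there ranged from -8.47 to -2.78 with a median of -6.65 in stressed cows and from -9.78 to -5.50 with a median of -7.20 in limited stress cows, and 12 of 16 stressed cows exceeded the limited stress median. The ADAMTS4 probe was well above background on 12 stressed and 10 limited stress arrays in the ST, and its LT difference was 0.23 (SE 0.26). ADAMTS1, a related protease that restrains vessel growth, had an ST difference of 0.53 (SE 0.20, adjusted p = 0.157), and 13 of 16 stressed cows exceeded the limited stress median, while its LT difference was 0.25 (SE 0.13). With the cow as a replicate block the ST difference of ADAMTS1 passed the threshold (adjusted p = 0.0704 in limma). It did not pass with cow and slide together, with scan day as a block, with the control features, without scaling or after normexp. MMP2, the gelatinase of fibroblasts, had 0.07 in the LT and -0.08 in the ST, and both its probes were within 0.05 of each other in each muscle. MMP17 had -0.36 (SE 0.17) in the LT and -0.01 in the ST.

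TIMP2, an inhibitor of metalloproteinases, was close to the threshold. Its LT log2 fold change was -0.24 (SE 0.09), with an adjusted p of 0.173 in limma, and its ST log2 fold change was -0.23 (SE 0.08), with an adjusted p of 0.104. In the LT 2 of 16 stressed cows and in the ST 4 of 16 lay above the limited stress median. On the control diet alone TIMP2 was called in the ST (-0.38, adjusted p = 0.076), where it had -0.09 (adjusted p = 0.945) on the EP diet alone, and the difference between the diets was not called. The imbalance of handling and slide in the ST applies to this value too. TIMP1 had 0.01 and 0.04. Among the collagen-processing genes, LOXL4, a lysyl oxidase homologue, had an LT difference of 0.39 (SE 0.16), with an adjusted p of 0.222, and an ST difference of 0.45 (SE 0.20), with an adjusted p of 0.223. There, 12 and 14 of 16 stressed cows exceeded the limited stress median. LOXL4 passed the threshold in the LT with slide as a block (0.48, adjusted p = 0.0906 in limma). It did not pass there with cow and slide together, with scan day as a block, with the control features, without scaling or after normexp. LOXL3 had -0.43 (SE 0.31) in the LT, a value set by 1 limited stress cow at -0.03, where the other 15 lay between -5.36 and -4.84. Without this cow the difference was -0.11. The array of that cow had 106 probes more than 4 log2 units above the LT median of the probe, against 1 to 32 on the other LT arrays, and 1 of the 4 tested custom probes of LOXL3 was higher on it than on any other LT array. PCOLCE2, an enhancer of procollagen processing, had -0.30 (SE 0.16) in the ST.

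The integrins, receptors that bind cells to the matrix, had no call (0 of 7 in each muscle). ITGA6, a laminin receptor chain, had 0.39 (SE 0.21) in the LT and 0.01 in the ST, and ITGAL, a leukocyte chain, had -0.30 (SE 0.16) and -0.22 (SE 0.17). ITGAV had 0.12 (SE 0.08) in the LT and -0.23 (SE 0.09) in the ST. Of the 4 genes with only a matching name, none passed. COL4A3BP, which encodes the ceramide transporter now named CERT1, had 0.0042 in the LT and -0.24 (SE 0.11) in the ST.

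**Figure D2:**
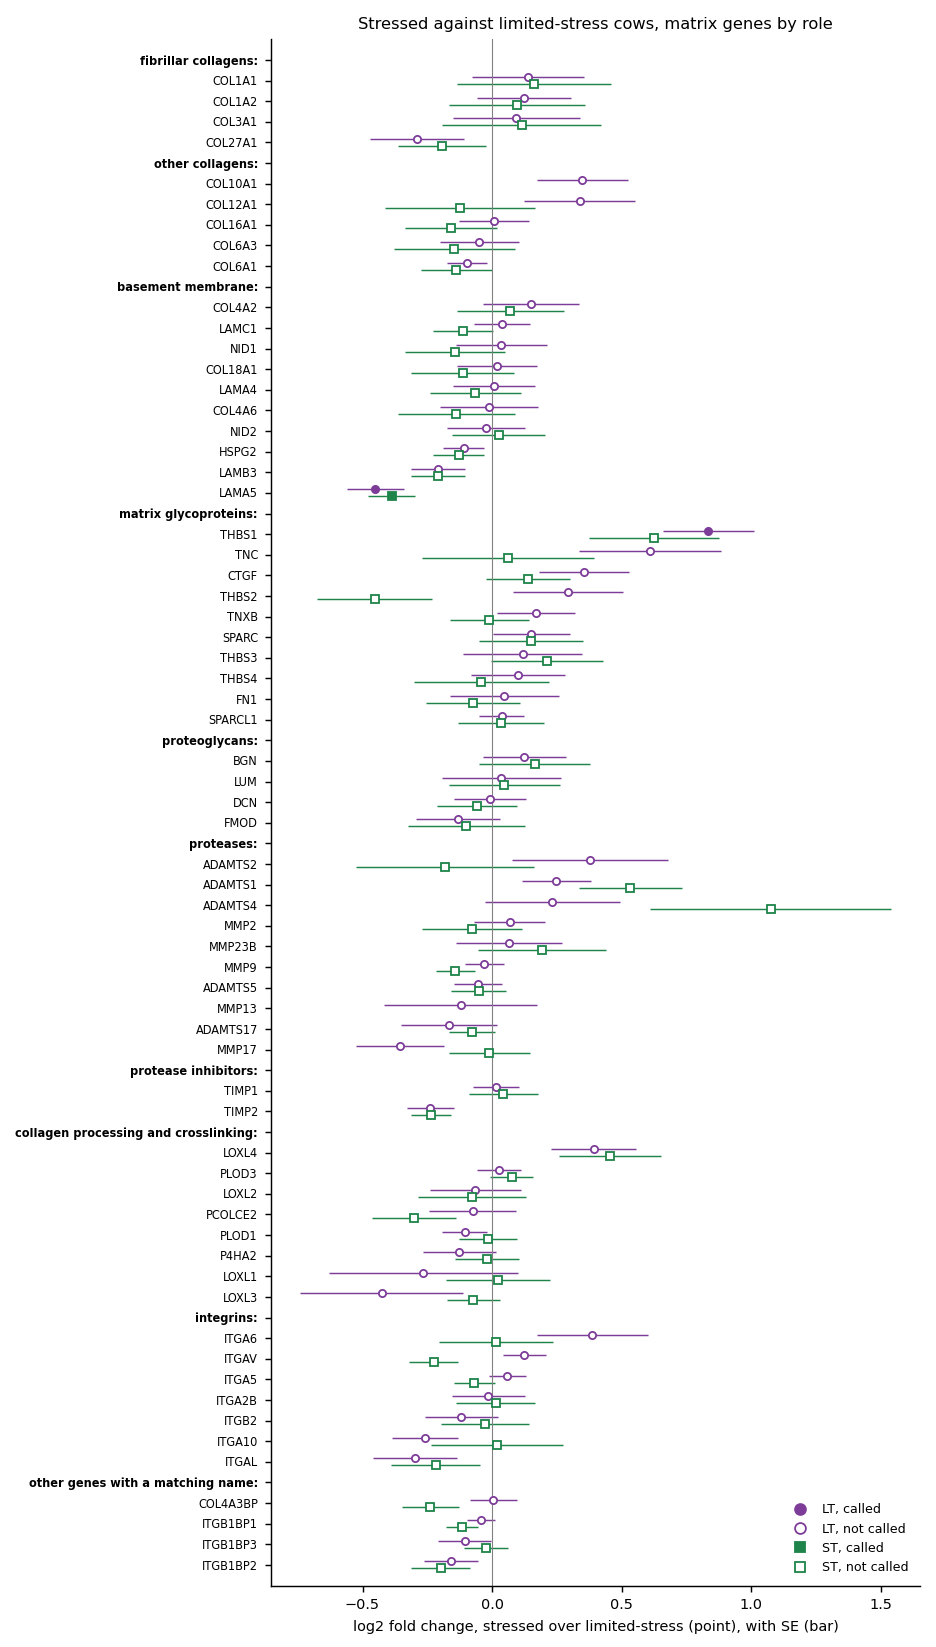
Log2 fold change between stressed and limited stress cows of each tested matrix gene, grouped by role, with its SE, in the LT (circles) and the ST (squares); filled symbols were called. THBS1 at 0.83 in the LT and LAMA5 at -0.45 in the LT and -0.39 in the ST are the filled symbols. Of the fibrillar collagens, COL1A1, COL1A2 and COL3A1 lie between 0.09 and 0.16 in both muscles, and COL27A1 at -0.29 (LT) and -0.19 (ST).

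No matrix gene was called for the interaction of muscle and stress (0 of 62, with 2 at an unadjusted p under 0.05, ITGAV and THBS2, against 4.35% of all tested transcripts). No transcript of the array was called for this interaction, for diet or for the interaction of stress and diet (0.0% in each). With the cow as a replicate block, the interaction of muscle and stress was called for 4 transcripts upwards and 2 downwards, none of them a matrix gene. For diet, the unadjusted p was under 0.05 for 7 of 64 matrix genes of the LT, and for 2 of 62 of the ST, against 6.08% and 7.44% of all tested transcripts. The matrix genes had a log2 fold change (EP over control) above 0 in 47 of 64 cases for the LT, and in 47 of 62 for the ST, with medians of 0.08 and 0.11, where all tested transcripts had a median of 0.0031 and 0.0025. Of all tested transcripts, 2223 of 4311 (LT) and 2172 of 4246 (ST) were above 0. Many matrix genes varied together across cows, as described below, so these counts are not of separate observations. For the interaction of stress and diet, the unadjusted p was under 0.05 for 1 matrix gene (LT) and 2 (ST), against 3.83% and 7.42% of all tested transcripts. Here 49 of 64 matrix genes (LT) and 48 of 62 (ST) lay above 0, with medians of 0.19 and 0.17. Of all tested transcripts, 2371 of 4311 and 2374 of 4246 did, with medians of 0.02 and 0.03. These counts too are not of separate observations. THBS1 had a log2 fold change for diet of -0.49 (SE 0.17) in the LT, with an adjusted p of 0.979 in limma.

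Matrix genes outside the families above, from a list of 58 names, were examined beside them. Of these, 21 were tested in the LT, with 4 called higher and 1 lower, and 22 in the ST, with 3 called higher and 0 lower, against 3.73% and 3.6% of all tested transcripts called. PLAT, the tissue plasminogen activator, rose in the LT by 0.40 on the log2 scale (SE 0.12, adjusted p = 0.0757 in limma). Its call was lost with the cow as a replicate block (adjusted p = 0.105), with cow and slide (0.101), without scaling (0.111) and with the control features (0.471). PLAUR, the receptor of urokinase, rose in the ST by 1.17 (SE 0.27, adjusted p = 0.0118), and 16 of 16 stressed cows exceeded the limited stress median. Its call was lost with slide as a block (0.95, adjusted p = 0.208) and with scan day as a block (0.98, adjusted p = 0.125), and after normexp its difference was 0.41. SPOCK2, a testican proteoglycan, rose in both muscles, by 1.33 (LT) and 1.86 (ST), as did HYAL2, a hyaluronidase, by 0.45 and 0.44. The paper lists SPOCK2 for both muscles and HYAL2 for the ST alone. Without the filter on dim probes SPOCK2 was not called (0.34, adjusted p = 0.63, in the LT and 1.11, adjusted p = 0.7, in the ST), and with the control features neither HYAL2 (adjusted p = 0.418 and 0.37) nor SPOCK2 in the LT (0.101) was. XYLT2, which starts glycosaminoglycan chains, fell by 0.48 in the LT (adjusted p = 0.00824), where no stressed cow lay above the limited stress median, and was not called with the control features (adjusted p = 0.119). Several of these genes were known to change from earlier results of these data. Of 15 tested genes of TGF-beta signalling, none was called in the LT and SMAD9 alone in the ST, at -0.93 (SE 0.22, adjusted p = 0.0145 in limma). SMAD7, which the paper reports as raised in both muscles and checked by qPCR in the LT, was not among the genes called under their names here. Of 4 tested genes of fibre adhesion none was called in either muscle.

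No marker of another cell type was called for stress in either muscle (fibroblast and stromal 0 of 3, endothelial and mural 0 of 6, fat 0 of 7, skeletal muscle 0 of 11 in each). The summed fibroblast markers ranged from 1.79 to 2.88 in stressed and from 1.57 to 2.74 in limited stress cows of the LT, and the summed vessel markers from 1.19 to 3.31 and from 1.105 to 2.55. Blood and immune markers were measured by 2 genes (LT) and 1 gene (ST). Their part in the stress results was not tested.

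While stress moved few matrix genes, the cows of one group differed widely in them. The SD between cows of one stress and diet group had a median of 0.465 (LT) and 0.514 (ST) over the tested matrix genes, against 0.299 and 0.281 over all tested transcripts. For COL1A1 it was 0.638 and 0.869. Most matrix genes were read by a single probe, while many transcripts of the array are the mean of several, which can vary less between cows. The spread was not adjusted for this. After the means of the stress and diet groups were removed, the matrix genes were compared with COL1A1 across the 32 cows of each muscle. In the LT 21 of 63 and in the ST 24 of 61 other matrix genes had a Pearson r above 0.6 with COL1A1, and 19 genes did so in both muscles. Over all tested transcripts 4.97% and 5.47% had such an r, and the median r was -0.05 and -0.06, where the matrix genes had a median of 0.40 and 0.52. All genes read on one array share its scaling factor and its RNA extract. With the arrays scaled to the control features, 66.7% (LT) and 55.7% (ST) of the matrix genes had an r above 0.6, against 23.4% and 14.4% of all tested transcripts, whose median r was then 0.52 and 0.42.

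Type I collagen chains moved nearly as one. COL1A2 had r = 0.941 and rho = 0.949 with COL1A1 in the LT and r = 0.959 and rho = 0.941 in the ST, each with a two-sided permutation p of 1e-05, the smallest that 100000 resamples can give (adjusted p = 5.25e-05 for r in the LT and 3.81e-05 in the ST, over 63 and 61 relations). COL3A1 had r = 0.890 in the LT and 0.902 in the ST. MMP23B, a metalloproteinase anchored in the membrane, followed with r = 0.913 and 0.915, closer to COL1A1 than any other protease, inhibitor or proteoglycan. SPARC, a collagen-binding glycoprotein, had 0.772 and 0.808, LUM had 0.771 and 0.693, and FN1 had 0.686 and 0.864. The inhibitor TIMP1 had 0.664 and 0.775, and MMP2 had 0.663 and 0.838. For the genes in this paragraph the adjusted permutation p was at most 0.000118 for r and at most 0.00231 for rho. Without the 2 cows farthest from the median of COL1A1, r stayed at 0.906 and 0.948 for COL1A2, 0.874 and 0.885 for MMP23B and 0.828 and 0.865 for COL3A1, while in the LT it went to 0.479 for FN1, 0.484 for MMP2 and 0.503 for TIMP1. Without those cows, 12 (LT) and 19 (ST) genes were above 0.6.

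The covariation differed between families, and its size rested on the scaling. The highest values of the basement membrane group were LAMA4 (0.815 in the LT and 0.742 in the ST) and NID2 (0.790 and 0.757), whereas LAMA5 had r = -0.162 and 0.0292, with adjusted permutation p of 0.466 and 0.934. The median r of the integrins was 0.105 (LT) and 0.294 (ST), and that of the proteases was 0.0829 and 0.236. THBS1 had r = 0.188 and 0.270, with adjusted permutation p of 0.382 and 0.197. With the control features the medians of the integrins were 0.601 and 0.522 and those of the proteases 0.55 and 0.483, LAMA5 had 0.480 and 0.458 and THBS1 0.530 and 0.471. Of the 4 genes with only a matching name, none was above 0.6. The summed level of 3 fibroblast and stromal markers outside the matrix families, FSTL1, S100A4 and VIM, had r = 0.779 and rho = 0.732 with COL1A1 in the LT and r = 0.792 and rho = 0.777 in the ST (adjusted permutation p = 9e-05 for r and 0.00018 for rho in both muscles, over 18 relations). The summed fat markers had r = 0.548 and rho = 0.495 in the LT (adjusted permutation p = 0.00455 and 0.0193) and r = 0.169 and rho = 0.210 in the ST (0.494 and 0.41). The summed blood and immune markers HBB and PTPRC had r = 0.675 and rho = 0.526 over 30 cows of the LT (adjusted permutation p = 0.00036 and 0.0193), and PTPRC alone had r = 0.379 and rho = 0.356 in the ST (0.085 and 0.142). The summed fast fibre genes had r = -0.408 and rho = -0.357 in the LT (adjusted permutation p = 0.0711 and 0.142), and the summed skeletal muscle markers r = -0.410 and rho = -0.363 over 28 cows of the ST (0.085 and 0.153). The part of these cell types in the covariation was not tested. The summed endothelial and mural markers had r = 0.0979 and 0.0332 (adjusted permutation p = 0.72 and 0.91).

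**Figure D3:**
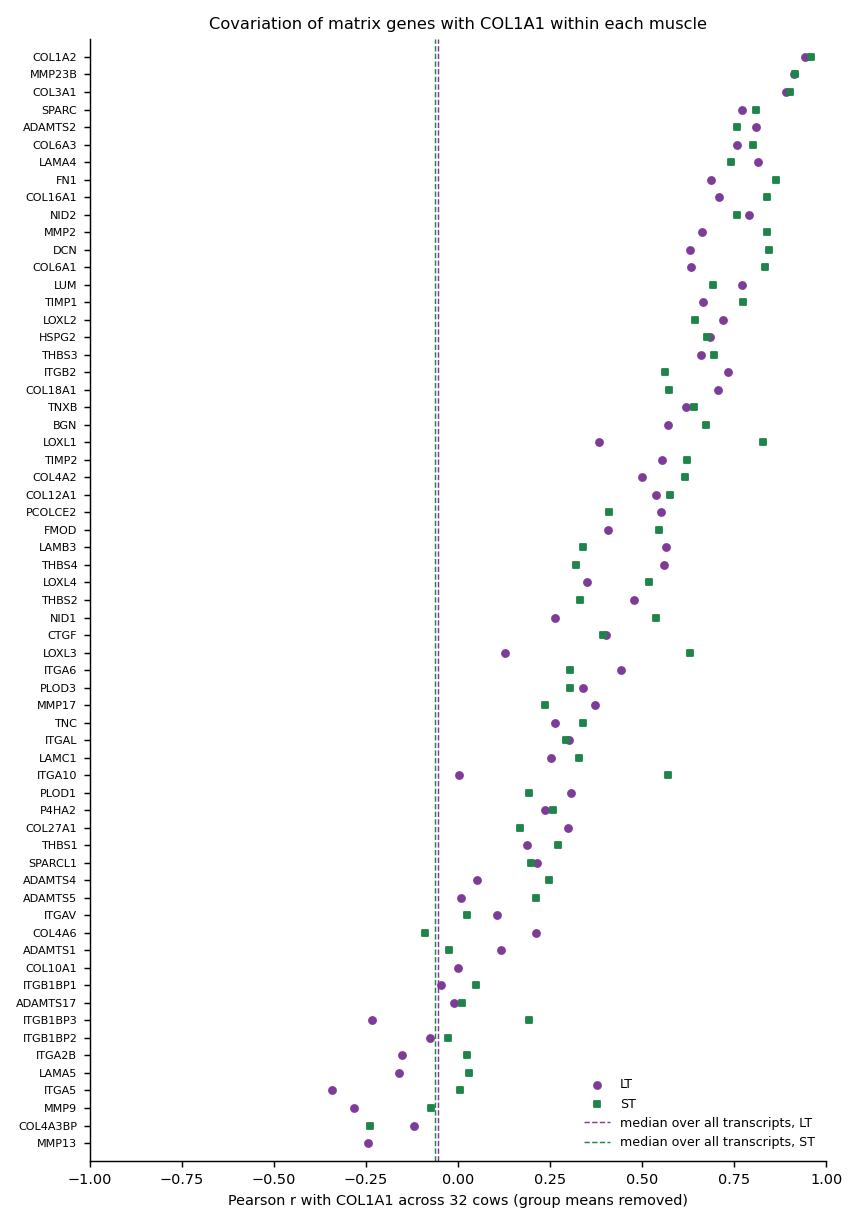
Pearson r of each tested matrix gene with COL1A1 across 32 cows, after removal of the stress and diet group means, in the LT (circles) and the ST (squares); dashed lines are the medians over all tested transcripts. COL1A2, MMP23B and COL3A1 are at the top with r of 0.89 or more, and with this scaling, to the 75th percentile, LAMA5, THBS1 and the integrin-binding proteins lie much lower.

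The level of a matrix gene in the LT of a cow went with its level in the ST, as did that of most transcripts of the array. The median r between the muscles was 0.49 over the 62 matrix genes and 0.42 over all 4230 transcripts tested in both. Of 13 genes compared in this way, 10 passed an adjusted permutation p of 0.05 for both r and rho after the group means were removed, and all 13 had r above 0. The lowest r among these 10 was 0.405, and 53% of all tested transcripts had an r of that size or more. LUM had r = 0.595 and rho = 0.602 (adjusted permutation p = 0.00215 and 0.00169), MMP2 r = 0.591 and rho = 0.646, SPARC r = 0.581 and rho = 0.549, THBS1 r = 0.543 and rho = 0.505 (adjusted permutation p = 0.00397 and 0.00648), COL3A1 r = 0.525 and rho = 0.562, and COL1A1 r = 0.516 and rho = 0.532 (adjusted permutation p = 0.00557 and 0.00475). FN1, CTGF and TIMP2 did not pass for both measures, with r of 0.363, 0.459 and 0.226. Without the 2 cows farthest from the LT median, r was 0.495 for COL1A1, 0.605 for COL3A1 and 0.452 for THBS1, and 0.314 for COL6A1 in place of 0.423. When the slide means were also removed, 12 of 13 genes passed and COL1A1 had r = 0.441. When the arrays were scaled to the control features none passed for both measures, and r was 0.406 for COL1A1 and 0.420 for COL3A1.

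**Figure D4:**
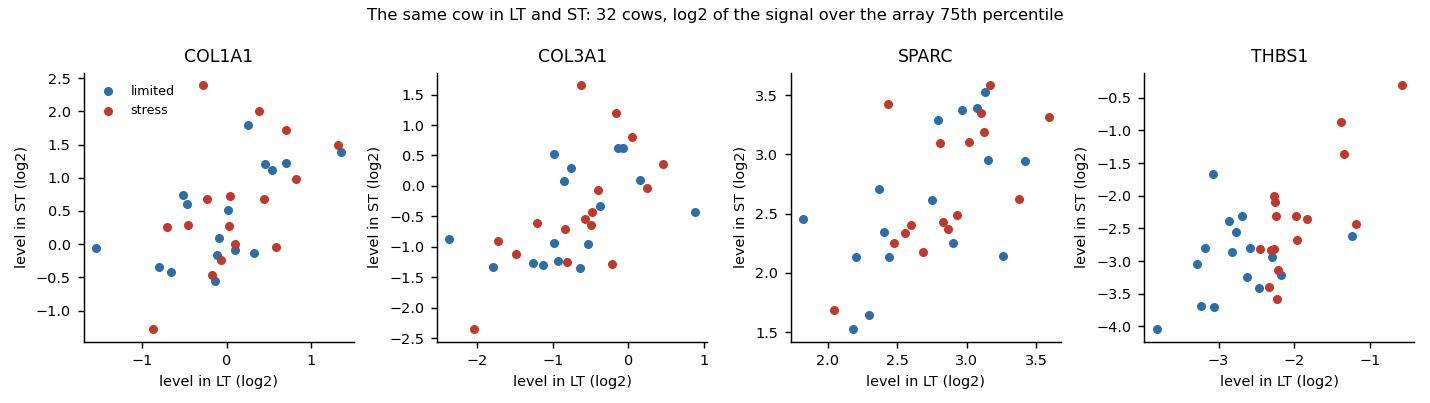
Level of COL1A1, COL3A1, SPARC and THBS1 in the LT (x axis) and the ST (y axis) of the same cow, on the log2 scale, with 16 stressed and 16 limited stress cows. Cows high in one muscle tend to be high in the other, with r of 0.516, 0.525, 0.581 and 0.543 after the group means were removed.

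The LT was then set against the ST over all cows. Each slide and each scan day held arrays of 1 muscle only, so a difference between the muscles and one between the slides cannot be told apart. Of 62 matrix genes tested in both muscles, 28 were called, 12 higher in the LT and 16 higher in the ST, against 51.7% of all tested transcripts (21.9% higher and 29.9% lower in the LT). The matrix genes were called at a share of 45.2%, and 30 of them had an unadjusted p under 0.05, where 65.8% of all tested transcripts did. The split depended on the scaling. It was 14 higher and 3 lower in the LT with the control features, and 19 and 13 without scaling, and these scalings moved the median of all transcripts from -0.03 to 0.15 and 0.09. With slide as a random block it was 5 and 14, and with the cow as a replicate block 16 and 20.

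SPARCL1, which encodes hevin, a relative of SPARC found in vessels and muscle, differed most. Its level ranged from 0.07 to 1.03 with a median of 0.63 in the LT and from -1.57 to 0.51 with a median of -0.45 in the ST, and it was higher in the LT in 32 of 32 cows. The log2 fold change was 0.996 (SE 0.09, adjusted p = 2.9e-13 in limma). COL4A6, a minor chain of basement membrane collagen, was higher in the LT in 31 of 32 cows, by 0.77 (SE 0.15, adjusted p = 1.74e-05), and its custom set gave 0.97. ADAMTS1 was higher by 0.61 (SE 0.12) in 30 of 32 cows, ADAMTS4 by 0.63 (SE 0.27) in 26, and COL4A2 by 0.43 (SE 0.14) in 24. LOXL2, THBS4, ITGA6, ITGAL, NID2, COL27A1 and ADAMTS5 were also higher in the LT, by 0.20 to 0.35. Of these, ADAMTS4, LOXL2, THBS4, ITGA6, ITGAL, NID2 and COL27A1 were not called with slide as a random block.

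Higher in the ST were COL16A1, at -0.79 (SE 0.11, adjusted p = 3.16e-08 in limma), with a median of -1.79 (LT) and -1.06 (ST) and 29 of 32 cows in that direction, and COL12A1, at -0.62 (SE 0.18, adjusted p = 0.00346), with 24 of 32 cows. COL1A1 was higher in the ST by 0.48 on the log2 scale (log2 fold change -0.48, SE 0.19, adjusted p = 0.0271), with 23 of 32 cows, and was not called with slide as a random block (adjusted p = 0.134), whereas COL1A2 (-0.26) and COL3A1 (-0.26) were not called. The proteoglycan BGN (-0.48), the processing genes PCOLCE2 (-0.58) and LOXL4 (-0.46), the inhibitor TIMP2 (-0.36), the integrins ITGA5 (-0.39) and ITGAV (-0.30), the laminin chains LAMB3 (-0.34) and LAMA5 (-0.29), and FN1 (-0.28) were also higher in the ST. The 2 probes of ADAMTS17 were both lower in the LT, at -0.29 and -0.89. The 2 probes of DCN differed, with one at -0.39 (adjusted p = 0.0022) and the other at -0.08 (adjusted p = 0.52), so DCN was not called. Among the 4 genes with only a matching name, 3 were higher in the ST, COL4A3BP (-0.69) and ITGB1BP1 (-0.38) in 32 of 32 cows each, and ITGB1BP3 (-0.23). All 7 fast fibre genes were called lower in the LT and 5 of 7 slow fibre genes higher, 4 of 6 endothelial and mural markers were called higher in the LT, and 8 of 11 skeletal muscle markers lower. Their part in the matrix differences was not tested.

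**Figure D5:**
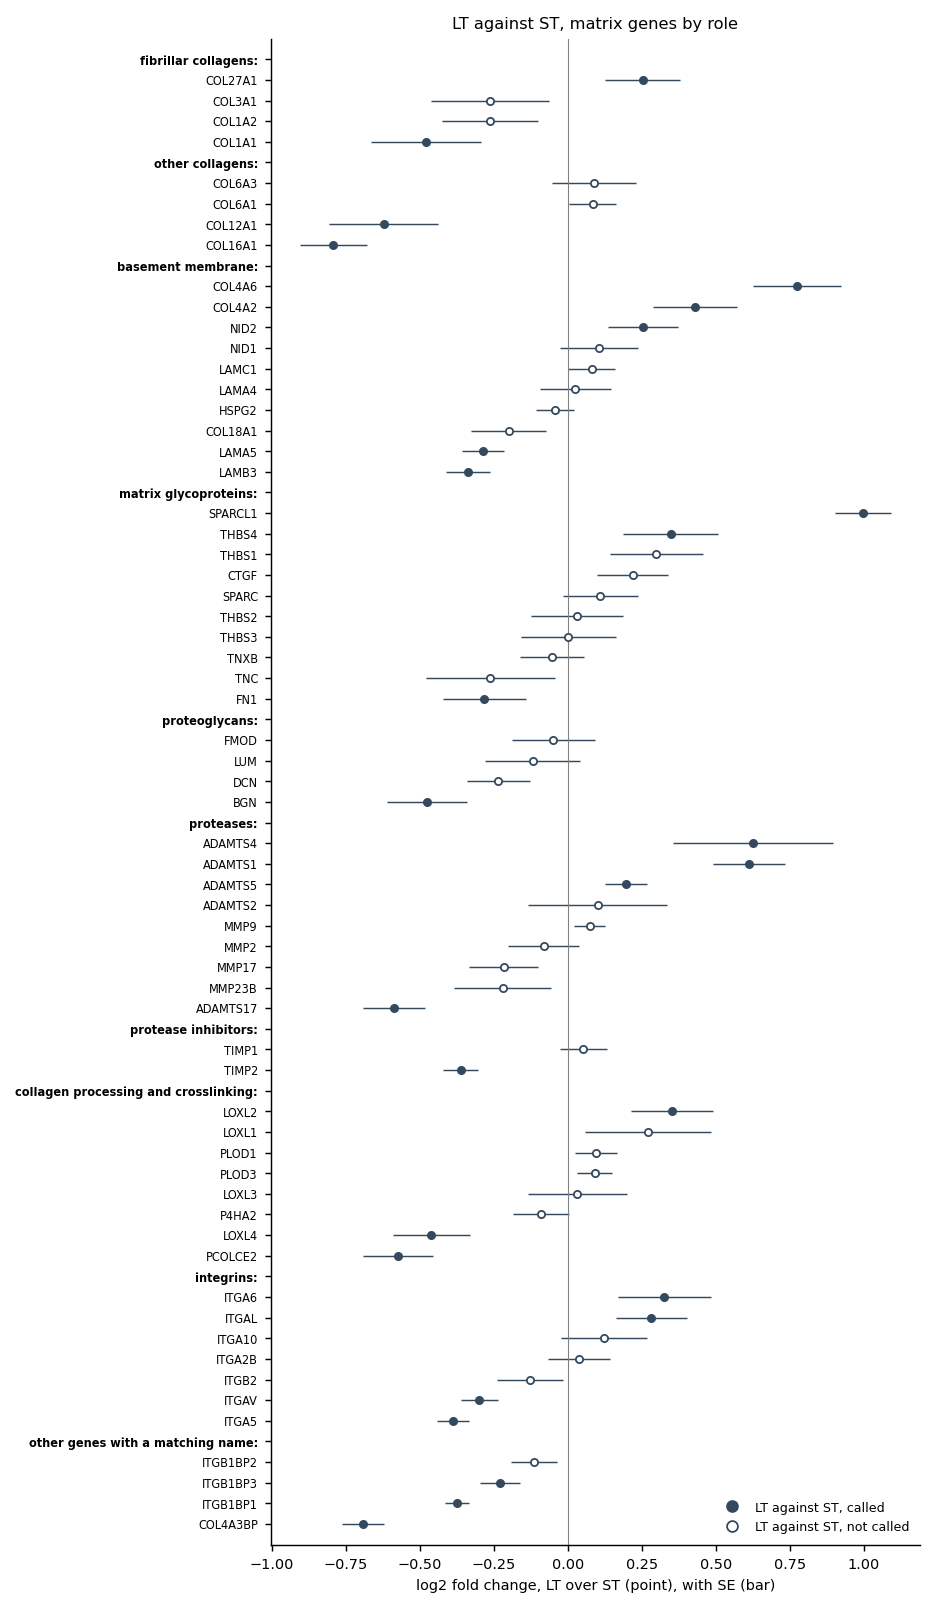
Log2 fold change between the LT and the ST of each matrix gene tested in both muscles, grouped by role, with its SE; filled symbols were called and values above 0 are higher in the LT. SPARCL1 at 0.996 and COL4A6 at 0.77 are the highest values, and COL16A1 at -0.79 is the lowest.

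The custom probe sets matched to matrix genes by shared bases were a second measure of 38 of these genes, with 45 sets tested. The named probe and the set had the same call in 45 of 45 sets for stress in the LT, 44 of 45 in the ST and 33 of 45 for LT against ST, and their log2 fold changes differed by a median of 0.02, 0.03 and 0.04. For stress, 1 set was called in the LT, that of THBS1, and 1 in the ST. Nearly all of the same calls for stress were thus between values that were not called. LAMA5 had no matched set. The exception in the ST was the set of MMP9, of which 1 probe was tested, called at -0.19 where the named probe had -0.14. The 8 sets of FN1 had between 0 and 3 of their 5 probes past the threshold for LT against ST, where the named probe was called.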

How the data were processed

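RNA from the LT and ST of each cow was hybridised by the authors to single-colour Agilent arrays, and the deposited intensities (gProcessedSignal, Feature Extraction 10.1.1.1) were, per the file headers, background-subtracted and detrended. The deposited series table held these same values. The array number limits the precision. The paper's methods scaled to control probes, but their number there differs from the 536 control features marked in the files, so scaling to these features, tried as an alternative, may not be the authors' scaling. Their median signal was low (3.24 units), so each array was divided by the 75th percentile of its 13414 other spots and log2 transformed. Spots the software set aside as outliers were left out, and spots of one probe were averaged. Probes that 11 or more of 32 arrays showed well above background were fitted per muscle with limma 3.58.1 in R 4.3.3 (4 stress and diet groups, two-sided tests). Contrasts between muscles used all 64 arrays and 8 groups. A gene's fold change is the mean over its probes. The paper also fitted a period of slaughter, not used here.

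The cow number pairs the muscles of one animal: over 10254 probes, the deviations of a cow in the LT and the ST correlated with a median r of 0.433 (lowest 0.102, all 32 over 0.1). Intervals use 28 residual degrees of freedom. Correlations used 100000 permutations (Python, numpy). Gene names are those of the array; RefSeq accessions matched 50 of 78, 46 under the same symbol. A custom set took a gene's name if a run of 25 or more bases matched that gene's probes and no other gene's. Members, lists and tests were chosen with earlier results of these data known. Named genes are the called ones, the 5 largest changes each way per muscle, the 10 largest each way between muscles, those the paper names and list genes called for stress; the others named, and the comparison with COL1A1, were chosen after their values were seen. The LT fit was tried on simulated arrays with independent normal noise for each probe. Those arrays had neither the covariation of genes nor the slides of these data, so the trial does not bear on them. Alternatives were other scalings, background correction, filters, thresholds and blocks. One gene called for stress among the matrix genes outside the named families is not reported here.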

Additional observations from a re-analysis of the deposited data

Results flagged for a closer look

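In groups of 8 cows of one muscle, handling and diet, 19 of the 264 groups examined had a cow far from the others, in 14 genes, where chance gives about 1 such group in 20. The ratio of the gap to the whole range of the group is given for each. The ratio for LOXL3 was the highest, 0.909 for the highest cow in the LT under limited stress on the control diet. In the LT of stressed cows on the control diet, the lowest cow stood apart for COL12A1 (0.637), MMP17 (0.608), COL27A1 (0.562) and ITGA6 (0.548), and the highest cow for THBS2 (0.645). In the LT of limited stress cows on the EP diet, the lowest cow stood apart for ADAMTS2 (0.623), MMP17 (0.615), PCOLCE2 (0.578), TIMP2 (0.563) and FN1 (0.534), and the highest for COL4A3BP (0.692). In the ST of stressed cows on the control diet, the lowest cow stood apart for ADAMTS17 (0.621), THBS2 (0.583) and BGN (0.546), and the highest for FN1 (0.612). In the ST, the lowest stressed cow on the EP diet stood apart for COL4A6 (0.527), and the highest limited stress cow on the control diet for THBS2 (0.589) and COL12A1 (0.563). The cause was not tested.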

How the results depend on the processing

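Of 771 values of single genes under the alternatives, 678 kept their direction and their side of the threshold, 41 lost and 6 gained the call, and 46 changed sign. Most of these values were of stress comparisons without a call, for which keeping the side means staying without one. The setting with another threshold could not change a fold change. For stress in the LT, 2 matrix genes were called, and 0 with scaling to the control features. For stress in the ST, 1 was called, against 2 when the percentile left out outlier spots (chosen after seeing the data), with the mean over the probes of a transcript and with the cow as a replicate block, and 0 with the control features, without scaling, after normexp, with slide or scan day as a block and with cow and slide together as a replicate block. With a stricter filter on dim probes the 1 gene called in the ST was not LAMA5, which was not tested there. Called in both muscles was 1 gene, and 0 under those same settings that gave 0 in the ST and with the stricter filter on dim probes. For LT against ST, 28 became 17 with the control features and 17 with scan day as a block. Of the 10 genes whose LT and ST levels went together across cows, 0 passed with the control features. Over all transcripts, stress in the ST gave 63 higher and 90 lower, against 33 and 5 with the control features and 79 and 8 without scaling. The cause was not tested.

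Over all tested matrix genes, the log2 fold change for stress had the opposite sign in 24 of 64 (LT) and 16 of 62 (ST) with the control features, in 18 and 14 on the control diet alone, in 14 and 18 on the EP diet alone, and in 5 and 27 without scaling. Outside the 20 genes named by rule for stress, on the control diet alone COL1A1 was -0.0718 and -0.103, COL1A2 -0.0377 and -0.139, and LUM -0.43 and -0.349 in the LT and the ST. Among those 20, the values that changed sign were these. With the control features, COL3A1 was -0.0839, COL4A3BP -0.173, FN1 -0.131, MMP2 -0.11 and THBS3 -0.0599 in the LT, and FN1 was 0.0237, LOXL3 0.0229, MMP17 0.0541 and MMP2 0.0193 in the ST. Without scaling, FN1 was 0.077, LOXL3 0.0762, MMP17 0.124 and MMP2 0.0726 in the ST. After normexp, ADAMTS2 was 0.00876, LOXL3 0.0375 and MMP17 0.0221 in the ST. With the cow as a replicate block, MMP17 was 0.00917 in the ST. With cow and slide together as a replicate block, COL4A3BP was -0.0433 in the LT, and ITGA6 was -0.154, MMP17 0.166 and TNC -0.322 in the ST. With scan day as a block, COL4A3BP was -0.0292 in the LT, and COL3A1 was -0.0037, ITGA6 -0.0663, MMP17 0.14 and TNC -0.316 in the ST. With slide as a block, COL4A3BP was -0.0422 in the LT, and ITGA6 was -0.131, MMP17 0.18 and TNC -0.325 in the ST. When the percentile left out outlier spots, ITGA6 was -7.9e-05 in the ST. On the EP diet alone, COL4A3BP was -0.0364 and THBS2 -0.0947 in the LT, and ADAMTS2 was 0.304, FN1 0.317, LOXL3 0.00337, MMP2 0.0495 and TNC -0.273 in the ST. On the control diet alone, ADAMTS4 was -0.111, COL3A1 -0.027, FN1 -0.201, MMP2 -0.0347, PCOLCE2 0.0588 and THBS3 -0.243 in the LT, and COL3A1 was -0.181 and THBS3 -0.0864 in the ST. A fit of LT against ST with cow and slide together was not run.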
